A study of Caenorhabditis elegans with 2 samples.

Results

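The *ceh* genes are named homeobox genes of the nematode *Caenorhabditis elegans*, and they were taken here as all protein-coding genes of the WBcel235 Ensembl annotation whose symbol starts with ceh-. There were 63 of them among 19973 protein-coding genes, and the other 19910 genes were the background. Binding of the bZIP transcription factor ATF-7 at these genes was read from ChIP-seq peaks, that is, from sequencing of DNA that was crosslinked to the tagged protein and precipitated with it. All libraries came from 1 group, mixed-sex young adults of strain OP638, of genotype unc-119(tm4063) III; wgIs638, grown from L1 larvae that were starved after bleaching. The transgene wgIs638 carries ATF-7 fused at its C terminus to GFP and FLAG, the description names an anti-GFP antibody where the antibody field says atf-7, and the labels do not give the promoter that drives the transgene. The group held 2 biological replicates, numbered 2 and 3, with no other condition, so nothing here compares conditions. Whole animals were used, so binding in few cells and weak binding in many cells cannot be told apart.

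A homeobox encodes the homeodomain, a fold of helices that binds short AT-rich DNA, and homeobox genes specify cell identity in development. In the worm most of them act in neurons, and others in muscle, epidermis, the pharynx, the gonad and the intestine, often in few cells of the animal. They fall into classes named after their founders, such as ANTP with the Hox and NK families, PRD, LIM, POU, sine oculis, TALE and CUT. ATF-7 itself belongs to the ATF and CREB family, is known in the worm from the immune response downstream of the p38 kinase PMK-1, and its family binds the cyclic-AMP response element (CRE) TGACGTCA.

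The name was checked against the sequence. A tryptophan followed by phenylalanine or tyrosine, any residue, asparagine, any residue and arginine marks the recognition helix of most homeodomains, and it was present in the translated coding sequence of 42 of the 63 genes (66.7%), against 57 of the 19910 other genes (0.286%). The other genes include homeobox genes with other names, and how many of the 57 are such genes was not counted. All 6 genes of the CUT class were among the 21 *ceh* genes without the pattern, since their homeodomains are known to lack this tryptophan. The others without it were high-numbered genes from *ceh-75* upward, which were kept here by their name. The lack of this short pattern does not show whether they encode a homeodomain. By class, the set held 18 ANTP genes, 8 PRD genes, 6 CUT genes, 3 sine oculis genes, 3 TALE genes, 2 POU genes and 1 LIM gene, and 22 genes were not assigned to a class.

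Few promoters were bound, of *ceh* genes or of other genes. A gene was called bound when the summit of a reproducible peak lay in its promoter, which spans 1000 bp before and 200 bp after any 5′ end among its protein-coding transcripts. Reproducible peaks are here the 2247 peaks in build ce11 of the authors' optimal list, which was thresholded on the irreproducible discovery rate (IDR). Of these, 2092 had a summit of both replicates within 100 bp. Of the 63 *ceh* genes 2 were bound, *ceh-38* and *ceh-99* (3.17%, exact 95% interval 0.387 to 11.0), against 1243 of the other protein-coding genes (6.24%) and 6.23% of all protein-coding genes. The interval of the *ceh* share includes the share of the other genes, so no difference was detectable with 63 genes. None of the 18 ANTP genes was bound, which allows a share of up to 16.7%, and none of the 8 PRD genes, which allows up to 37.5%. With promoters of 500 bp upstream 1 of the 63 genes was bound, *ceh-38* (1.59%, against 4.78% of the other genes). Among the 1123 strongest IDR peaks the same 2 genes were bound (3.17%, against 3.38% of the other genes). With the strongest peaks of replicate 2 alone (without replicate 3) 4 were bound, *ceh-2*, *ceh-38*, *ceh-45* and *ceh-99* (6.35%, against 5.9% of the other genes). Intervals here cover counting error only, and the read depth is not known from the files.

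At *ceh-38*, a CUT-class gene of the kind known as ONECUT in vertebrates, the peak lay at its start. The interval II:6951350-6951785 had its summit at 6951568, in an exon, 42 bp downstream of the outermost 5′ end. The gene has 11 annotated 5′ ends, and the summit lay 51 to 502 bp upstream of the other 10. The signal is the authors' value for the peak, on a scale that differs between the pooled reads and each replicate. At *ceh-38* it was 217 (pooled reads), 98.0 from replicate 2 and 122 from replicate 3. The pooled value ranked 487 of the 2247 IDR peaks. The same summit lay 268 bp upstream of *malt-1*, the worm's MALT1 paracaspase gene, which runs away from *ceh-38* on the opposite strand at a distance of 225 bp. The peak list does not say to which of the genes it belongs.

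At *ceh-99* there were 2 summits, and both lay in small non-coding genes. The stronger one (II:12518993-12519136) was 876 bp upstream of the 5′ end, inside the snoRNA gene *T21B4.20*, with a signal of 239 (pooled reads), 92.6 from replicate 2 and 151 from replicate 3. The weaker one (II:12519093-12519528) was 670 bp upstream, inside the miRNA gene *cel-mir-77*, with a signal of 119 (pooled reads), 70.9 from replicate 2 and 59.2 from replicate 3. Both also fell into the promoter of *srh-70*, a gene of the srh chemoreceptor family on the opposite strand, at 246 and 452 bp upstream of it. Of the 11 IDR summits at *ceh* genes 3 (27.3%) lay inside a non-coding gene other than a piRNA gene, against 12.4% of all IDR summits. These 3 were the 2 summits of *ceh-99*, whose intervals overlap, and a summit at *ceh-5*, so no difference can be read from them. All promoter summits of both bound *ceh* genes were thus shared with another protein-coding gene, as was the case for 428 of the 1243 other bound genes (34.4%).

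The sequence at these peaks is shown to place the short motifs, on the forward strand of the RefSeq WBcel235 genome, the ce11 assembly. Each stretch is lower case with capitals for a motif, which is the CREB core TGACG (or CGTCA on the other strand) or the GATA site TGATAA (or TTATCA). The *ceh-38* stretch is centred on a CREB core that begins 85 bp toward the lower coordinate from the summit, and the other 2 stretches hold 30 bases on either side of a *ceh-99* summit.
ceh-38 promoter, II:6951471-6951500: cacatgctctacCGTCAtttctcaatttcc
ceh-99 snoRNA summit, II:12519075-12519135: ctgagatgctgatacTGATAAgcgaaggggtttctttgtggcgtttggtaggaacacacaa
ceh-99 miRNA summit, II:12519281-12519341: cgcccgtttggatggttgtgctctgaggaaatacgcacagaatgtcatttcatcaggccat

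The full CRE was in none of the windows of 100 bp to either side of these 3 summits. The *ceh-38* window held 1 CREB core and no GATA site, the snoRNA window of *ceh-99* held 2 GATA sites, and the miRNA window of *ceh-99* held neither. The E-box CACGTG and the GA repeat GAGAGAGA were in none of the 3 windows.

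**Figure D1:**
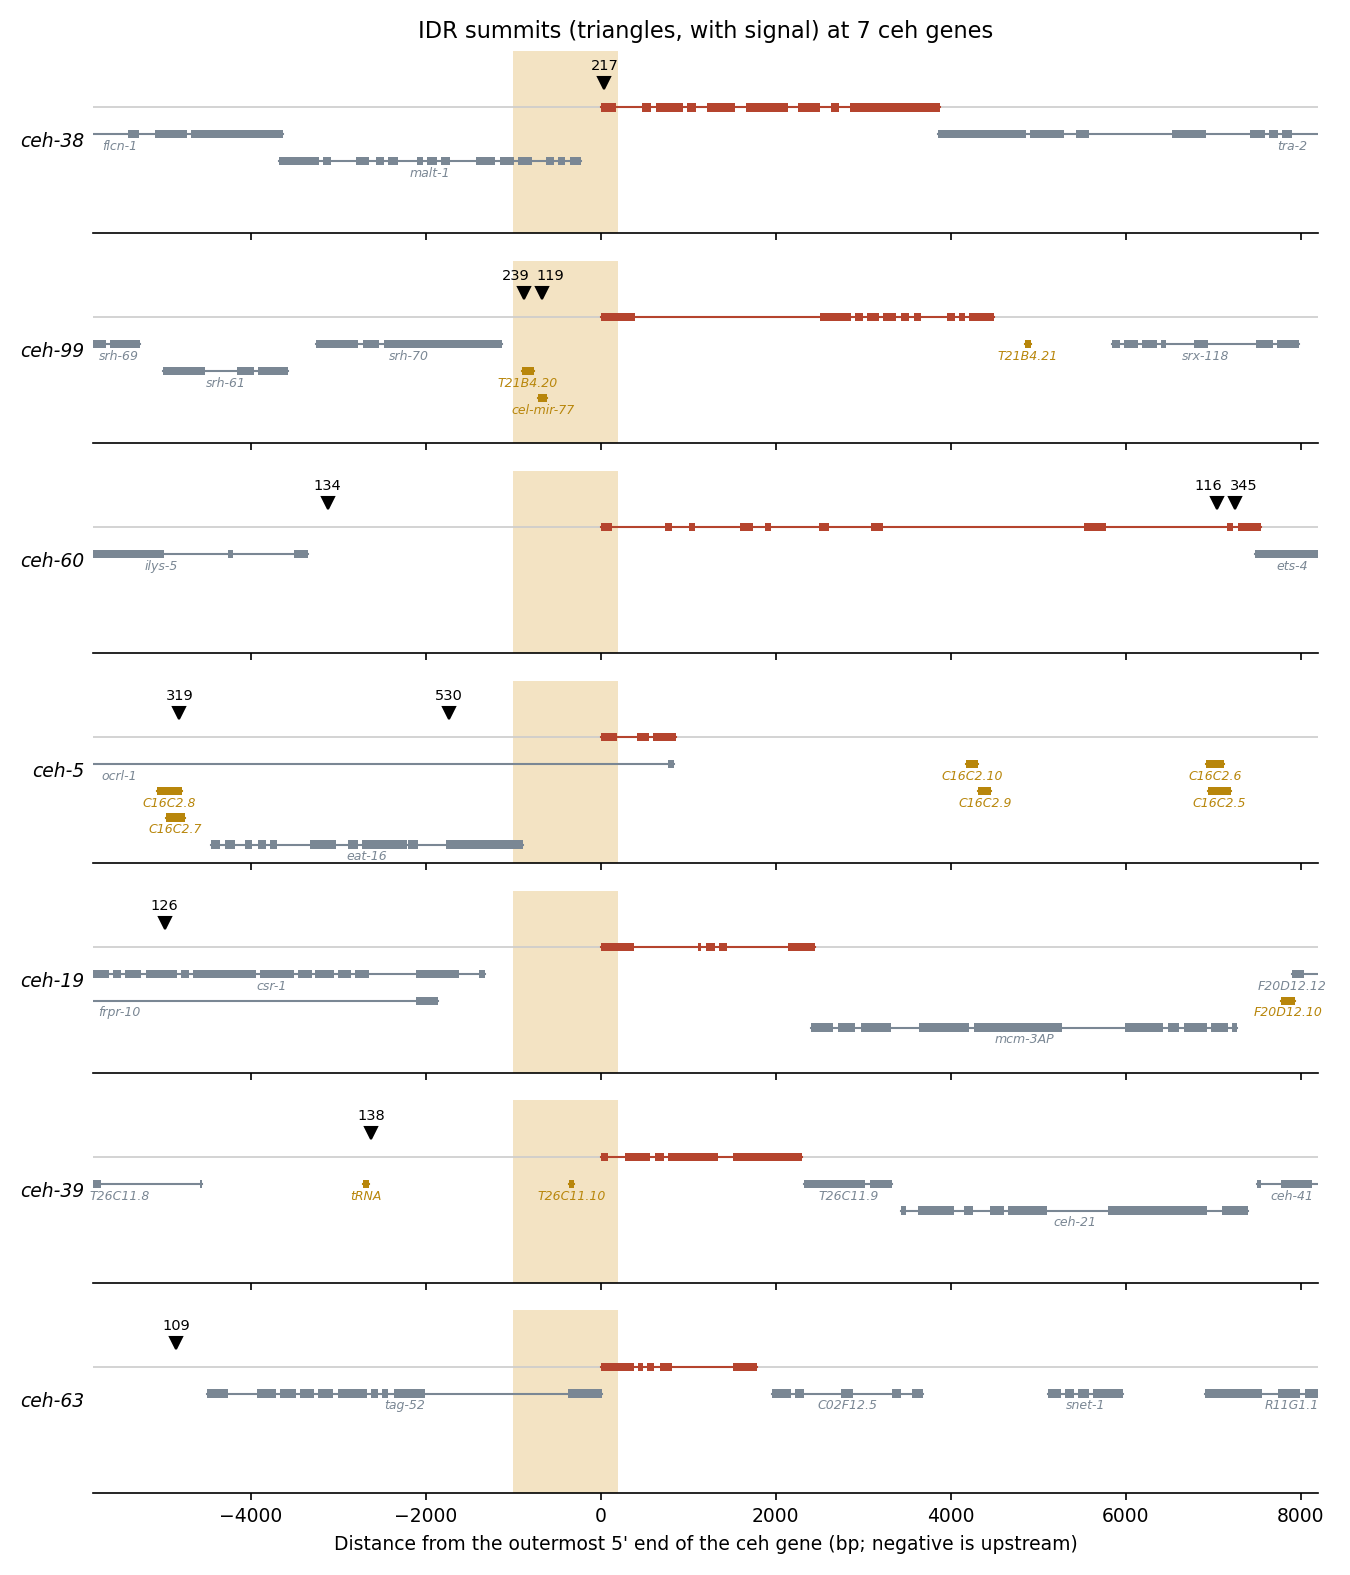
Gene models and IDR summits around the 7 *ceh* genes with an IDR peak, as distance in bp from the outermost 5′ end of the gene (negative is upstream, and each gene is turned to run to the right). Red is the *ceh* gene, grey other protein-coding genes, gold non-coding genes, boxes are exons, the shaded band is the outermost promoter window, and triangles carry the signal of each summit, 530 at *ceh-5* being the highest and 109 at *ceh-63* the lowest.

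The strongest peak inside a *ceh* gene was in *ceh-60*. It was the single *ceh* gene with an intronic IDR peak, that is, a summit in the gene but in no exon and no promoter of it (1.59% of 63 genes, exact 95% interval 0.0402 to 8.53), against 338 other genes (1.70%) and 1.70% of all protein-coding genes. CEH-60 is a TALE-class protein of the PBX kind, known to act in the intestine with its partner UNC-62 on vitellogenin genes. The interval X:6522597-6523163 was listed with 2 summits. The main one, at 6522901, had a signal of 345 (pooled reads), 101 from replicate 2 and 244 from replicate 3, and its pooled value ranked 161 of the 2247 IDR peaks. It lay in an intron of 52 bp (X:6522864-6522915), 7245 bp downstream of the 5′ end and only 305 bp from the 3′ end of the gene. The second summit, at 6523107 in the neighbouring intron of 1387 bp, had a signal of 116 (pooled reads), 15.3 from replicate 2 and 95.5 from replicate 3. The peak of replicate 2 at the second summit was a weak one, which ranked 23961 of 28126.

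The 3′ end of *ceh-60* overlaps that of *ets-4*, an ETS-family factor gene on the opposite strand, by 72 bp, and the main summit lay 234 bp past the 3′ end of *ets-4*. The window of 100 bp to either side held 1 CREB core and 1 GATA site, both on the reverse strand of the genome, which is the strand of *ceh-60*. The core began 11 bp toward the lower coordinate from the summit and the GATA site 28 bp toward the higher one. The second summit had a GATA site beginning 56 bp toward the higher coordinate and no CREB core. The stretches with these motifs, again on the forward strand with motifs in capitals, were these.
ceh-60 CREB core at the main summit, X:6522878-6522907: gaagggtcattaCGTCAatactttttttgc
ceh-60 GATA site at the main summit, X:6522917-6522946: tgtccatttccaTTATCAttgagtgacatt
ceh-60 GATA site at the second summit, X:6523151-6523180: aaataattacatTTATCAaaaaaaaatgcc

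Distal upstream peaks were searched beyond 1000 and up to 5000 bp upstream of the outermost 5′ end. They were found at 5 of the 63 *ceh* genes, *ceh-5*, *ceh-19*, *ceh-39*, *ceh-60* and *ceh-63* (7.94%, exact 95% interval 2.63 to 17.6), against 1677 other genes (8.42%) and 8.42% of all protein-coding genes. The *ceh* share was close to the background. Only *ceh-39* and *ceh-60* had their summit nearer than the next protein-coding gene upstream (3.17% of 63 genes, against 2.49% of the other genes). With the strongest peaks of replicate 2 alone (without replicate 3), 3 *ceh* genes had a distal peak, *ceh-5*, *ceh-19* and *ceh-39* (4.76%, against 8.07% of the other genes). With those of replicate 3 alone (without replicate 2) there were 5, with *ceh-24* gained and *ceh-19* lost (7.94%, against 8.35%). Among the 1123 strongest IDR peaks *ceh-5* alone had one (1.59%, against 4.42%).

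At *ceh-60*, besides the intronic peak, the distal interval X:6533047-6533482 had its summit 3119 bp upstream and 225 bp past the 3′ end of *ilys-5*, an invertebrate lysozyme gene. Its signal was 134 (pooled reads), 42.2 from replicate 2 and 87.7 from replicate 3. *ceh-39* is a CUT-class gene known as an X signal element in sex determination. Its distal interval X:1858578-1859013 lay in intergenic sequence, 2624 bp upstream and 23 bp from a tRNA gene, and had a signal of 138 (pooled reads), 57.1 from replicate 2 and 77.9 from replicate 3. Without the 183 IDR peaks within 200 bp of a tRNA gene, *ceh-39* had no distal peak. None of the motifs searched was within 100 bp of either summit, whose surroundings are shown for 30 bases on either side.
ceh-60 distal summit, X:6533235-6533295: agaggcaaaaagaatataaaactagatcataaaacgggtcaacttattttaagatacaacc
ceh-39 distal summit, X:1858766-1858826: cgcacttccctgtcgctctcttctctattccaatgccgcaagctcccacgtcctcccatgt

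The other distal peaks lay in or beyond neighbouring genes. For *ceh-63* the summit (X:3678688-3679123) was 4848 bp upstream of the gene, past all of *tag-52* and 349 bp upstream of the 5′ end of *tag-52*, with a signal of 109 (pooled reads), 35.0 from replicate 2 and 75.1 from replicate 3. It was among the weakest of the IDR list, at rank 2080, and the lowest signal in the list was 105. A CREB core began 58 bp toward the higher coordinate from this summit. For *ceh-19*, needed for the MC neurons of the pharynx, the summit (IV:7960714-7961149) was 4983 bp upstream, in an exon of the Argonaute gene *csr-1*. That summit also lay in an intron of *frpr-10*, a gene of the FMRFamide peptide receptor family, and 911 bp upstream of a 5′ end of *frpr-10*. Its signal was 126 (pooled reads), 57.7 from replicate 2 and 59.8 from replicate 3.

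The IDR peak of highest signal among the 11 at *ceh* genes was upstream of *ceh-5*, an ANTP-class gene, which had 2 distal summits, both inside *ocrl-1*. *ceh-5* lies close behind *eat-16*, which encodes a regulator of G protein signalling, and its 5′ end is covered by *ocrl-1*, the worm's OCRL phosphatase gene, on the opposite strand. The nearer summit (chromosome I, 9725256 to 9725598) was 1738 bp upstream of *ceh-5*, in an exon of *eat-16*, with a signal of 530 (pooled reads), 209 from replicate 2 and 324 from replicate 3, at rank 56 of the IDR list. It was the only one of the 11 IDR summits at *ceh* genes with the full CRE within 100 bp. The farther summit (chromosome I, 9722244 to 9722409) was 4815 bp upstream and 362 bp upstream of *eat-16*, with a signal of 319 (pooled reads), 115 from replicate 2 and 205 from replicate 3. This summit lay in exons of the non-coding RNA genes *C16C2.7* and *C16C2.8*. With promoters of 2000 bp upstream, *ceh-5* was the 1 gene added to the bound ones, which made 3 (4.76%, against 8.44% of the other genes).

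**Figure D2:**
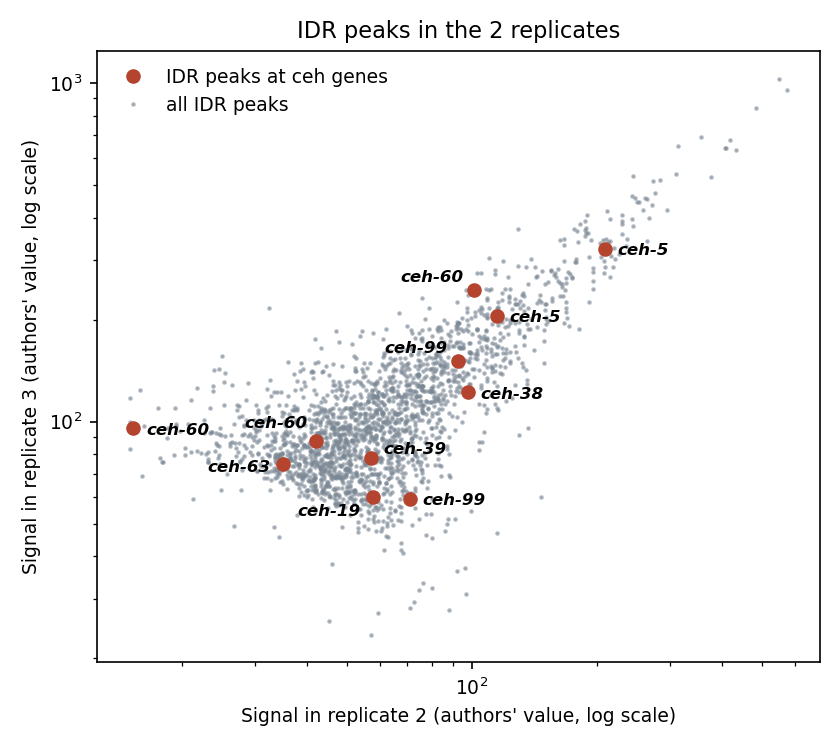
Signal of IDR peaks in replicate 2 (x axis) and replicate 3 (y axis), the authors' values on log scales, for the 2092 IDR peaks with a summit of both replicates within 100 bp. Red points are the 11 summits at *ceh* genes, from 209 and 324 at *ceh-5* to the second summit of *ceh-60*, which had 15.3 from replicate 2 and 95.5 from replicate 3.

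The 11 summits at *ceh* genes fell in 10 distinct intervals, and each had a summit of both replicates within 100 bp. The CRE was within 100 bp of 1 of the 11 (9.09%), against 9.79% of all IDR summits, and the CREB core, which the CRE contains, at 4 (36.4%), against 40.4%. GATA sites were at 3 of the 11 (27.3%), against 28.0% of all IDR summits. No E-box and no GA repeat was found at the 11 summits, against 11.8% and 8.86% of all IDR summits. In all, 7 of the 63 *ceh* genes (11.1%, exact 95% interval 4.59 to 21.6) had an IDR peak in one of the 3 places, against 14.6% of the other protein-coding genes.

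The relaxed list of the pooled reads holds 30000 peaks down to a signal of 24.6, strong and weak ones alike. Its peaks were in the promoters of 19 *ceh* genes, the bound *ceh-38* and *ceh-99* included (30.2%, exact 95% interval 19.2 to 43). The share was 37.6% of the other genes and 37.6% of all protein-coding genes, bound ones included. That left 17 *ceh* genes with a relaxed peak and no IDR peak in the promoter, and 44 with neither. The median of the strongest signal among the 17 was 42.6, against 43.2 among the 6248 other genes in the same position. In 7 of the 17 (41.2%) both replicates had a summit within 100 bp of it, against 36.1% of those other genes, and in 3 (17.6%) neither had, against 10.8%. Relaxed peaks were at the distal upstream position of 37 *ceh* genes (58.7%), against 55.3% of the other genes and 55.3% of all protein-coding genes. They were in introns of 11 *ceh* genes (17.5%), against 19.5% of the other genes and 19.5% of all protein-coding genes.

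The unbound promoters with the highest relaxed signal were those of *ceh-2*, *ceh-45*, *ceh-92*, *ceh-60* and *ceh-37*. *ceh-2*, the EMX-type gene, had a signal of 94.8 (pooled reads), 46.2 from replicate 2 and 55.6 from replicate 3, just under the lowest IDR signal of 105. Its summit lay 782 bp upstream, inside a tRNA gene. *ceh-45*, the goosecoid-type gene, had 82.5 (pooled reads), 55.1 from replicate 2 and 26.6 from replicate 3, at a summit 251 bp upstream. That peak ranked 1315 in replicate 2 and 14494 in replicate 3. The replicates thus differed in order at *ceh-45*. With the strongest peaks of replicate 2 alone *ceh-45* counted as bound, and with those of replicate 3 alone it did not. The same held for *ceh-2*, whose peak ranked 1966 in replicate 2 and 3251 in replicate 3.

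*ceh-92* had a signal of 75.5 (pooled reads), 23.2 from replicate 2 and 52.6 from replicate 3, at 907 bp upstream. The *ceh-60* promoter itself had 74.7 (pooled reads), 39.4 from replicate 2 and 40.9 from replicate 3, at 658 bp upstream. *ceh-37*, one of the OTX-type genes of sensory neurons, had 61.5 in the pooled reads and 25.1 in replicate 2, with no summit of replicate 3 within 100 bp. The other 12 unbound promoters with a relaxed peak had pooled signals of 26.3 to 49.6.

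**Figure D3:**
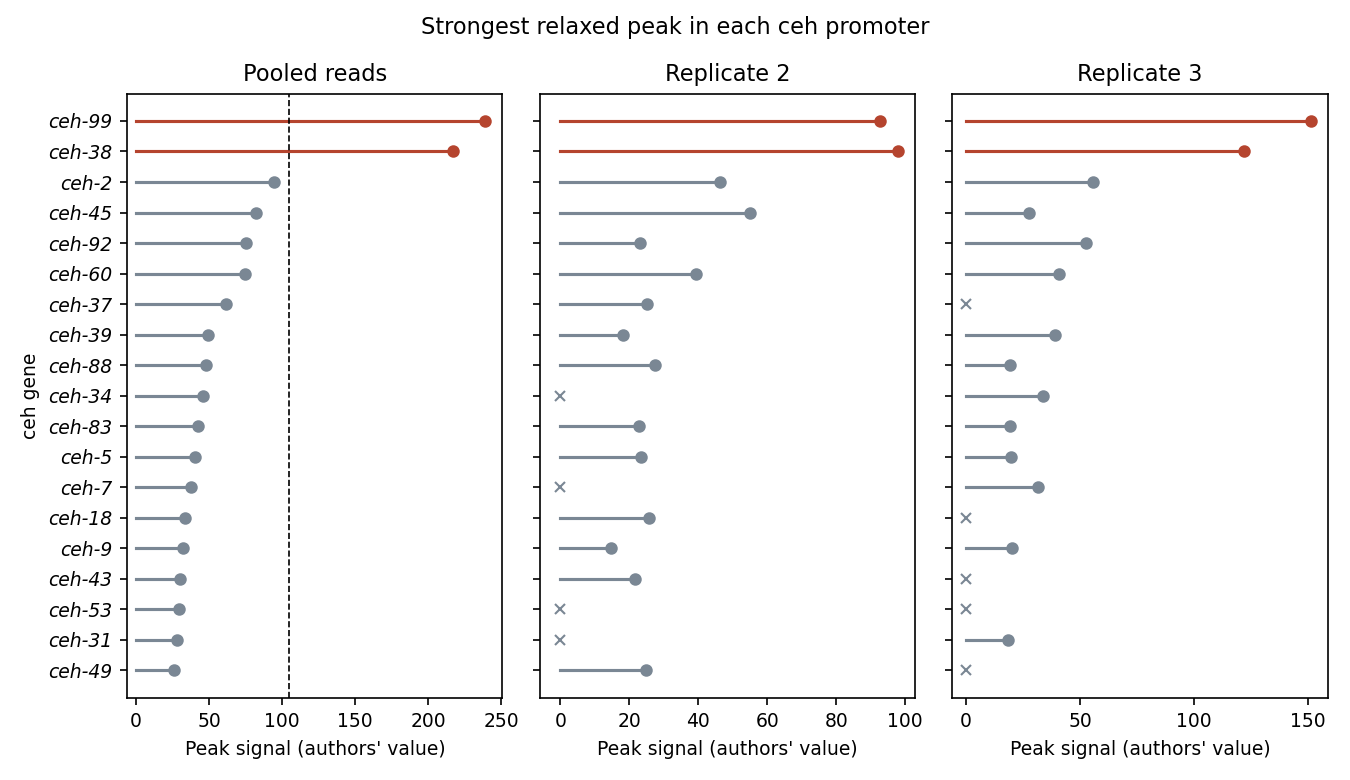
Strongest relaxed peak in the promoter of each of the 19 *ceh* genes that had one in the pooled reads (left), and the strongest promoter peak of the same genes in replicate 2 (middle) and replicate 3 (right), as the authors' signal on each list's own scale. Red marks the bound genes *ceh-99* and *ceh-38*, a cross marks a promoter with no peak in that list, and the dashed line is the lowest IDR signal, 105, under which the other 17 genes lie.

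The CRE was also searched in the promoters themselves. The word TGACGTCA, its own reverse complement, was in the outermost promoter window of *ceh-45*, *ceh-53* and *ceh-91* (4.76% of 63 genes, against 5.88% of the other genes in windows of the same length). At *ceh-45* it began at the base next to the summit of the relaxed peak described above. At *ceh-53*, a PRD-class gene, it lay 897 bp upstream, and at *ceh-91* it lay 66 bp downstream of the 5′ end, with no relaxed summit of the pooled reads within 200 bp of either. The *ceh-53* promoter held a relaxed peak elsewhere, 509 bp upstream, with a signal of 29.3. None of the 3 promoters held an IDR peak. The E-box was in 8 of the *ceh* windows (12.7%), against 18.4% of those of the other genes, and the median GC content of the windows was 36.4%, against 34.9%.

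The CRE words with no relaxed summit within 200 bp are shown with 11 bases on either side, on the forward strand of the same genome, with the CRE in capitals.
ceh-53 promoter, CRE at IV:3497309-3497316: tactttcagcaTGACGTCAcagaaaattgt
ceh-91 promoter, CRE at III:11616809-11616816: cgttatggacaTGACGTCAtcgccacacca

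The median *ceh* gene had more room upstream than the median of other genes, and the intervals of the medians did not overlap. The upstream spacing, from the outermost 5′ end to the next protein-coding gene on either strand, had a median of 1805 bp over the 63 *ceh* genes (order-statistic 95% interval 1121 to 3343 bp), against 936 bp over 19905 other genes (916 to 958 bp). Quartiles were 608 and 4458 bp for *ceh* genes, against 313 and 2725 bp for the other genes. At least 1000 bp were free upstream of 41 *ceh* genes (65.1%), against 48.1% of the other genes, and at least 5000 bp upstream of 15 (23.8%), against 13.6%. The order holds with the next gene of any kind other than piRNA genes (879 bp against 698 bp) and with the next gene on the same strand (4235 bp against 2850 bp). The median gene length was 2652 bp in *ceh* genes, against 2026 bp in the other genes, and the median intron sequence 1317 bp, against 720 bp, and 18 of them (28.6%) were on the X chromosome, against 13.6% of the other genes.

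The spacing differed widely among the members. It was longest at *ceh-13*, the labial-type Hox gene, with 19027 bp to its Hox neighbour *lin-39*, and 9 *ceh* genes had over 10000 bp. For 5 members, *ceh-5*, *ceh-10*, *ceh-51*, *ceh-63* and *ceh-74*, the 5′ end was covered by another gene. The upstream neighbour was itself a *ceh* gene for 5 members, *ceh-41* (103 bp from *ceh-21*), *ceh-82* (267 bp from *ceh-81*), *ceh-57* (444 bp from *ceh-58*), *ceh-34* (3616 bp from *ceh-33*) and *ceh-36* (10805 bp from *ceh-37*). Median spacing was 3392 bp in the 18 ANTP genes, 2596 bp in the 8 PRD genes, 464 bp in the 6 CUT genes and 831 bp in the 22 unassigned genes.

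Upstream spacing was 225 bp at the bound gene *ceh-38* and 1121 bp at the bound gene *ceh-99*, and from 2 genes no relation between spacing and binding can be read. In the 15 *ceh* genes with under 500 bp 1 was bound (6.67%), against 7.45% of 6710 other genes, and in the 11 with 1000 to 2000 bp 1 was bound (9.09%), against 5.74% of 3291. None was bound of 7 with 500 to 1000 bp, of 15 with 2000 to 5000 bp, of 6 with 5000 to 10000 bp and of 9 with more, against 6.4%, 5.03%, 4.38% and 7.17% of the other genes in these bins. In the sequence between each gene and the next protein-coding gene upstream, up to 5 kb, there were 4 IDR summits in 0.15 Mb for *ceh* genes, or 26.6 per Mb (exact Poisson interval 7.25 to 68.1), against 42.9 per Mb for the other genes. In introns, promoter windows included, there were 2 IDR summits for *ceh* genes, or 14.9 per Mb (1.80 to 53.8), against 17.1 per Mb. Both of these summits came from 1 interval of *ceh-60*, and 2 of the 4 upstream summits came from overlapping intervals at *ceh-99*. The Poisson intervals take each summit as independent, so they understate the counting error here. Both intervals include the value of the other genes.

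**Figure D4:**
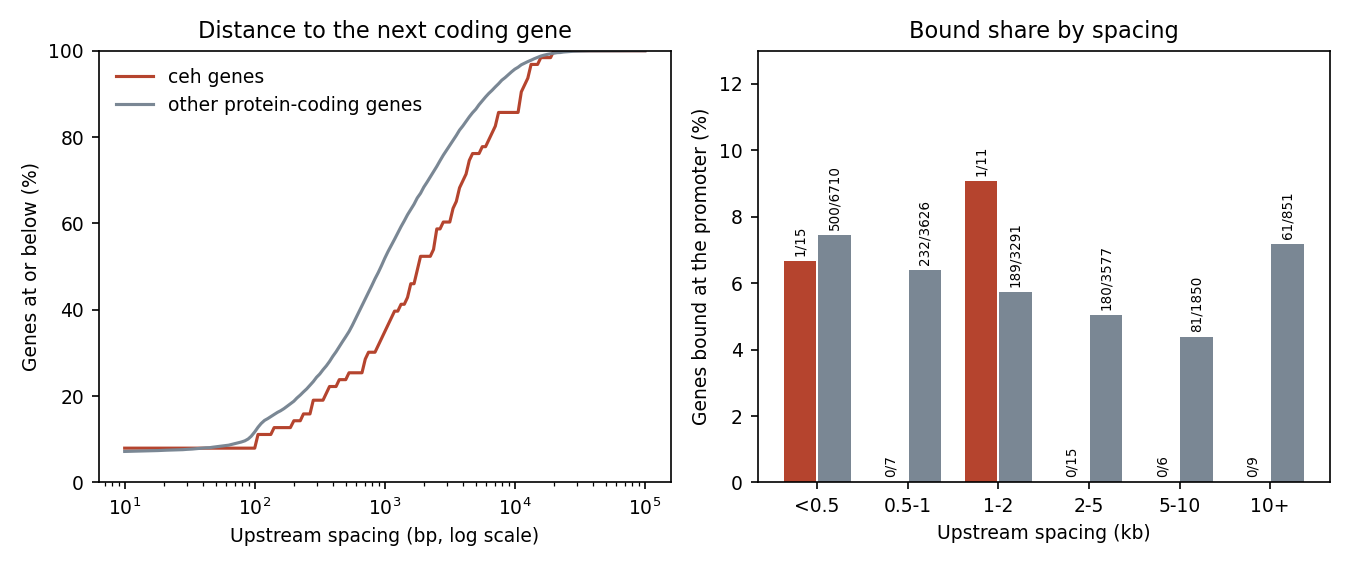
Left, the share of genes (%) with an upstream spacing at or below the value on the x axis (bp, log scale), for 63 *ceh* genes (red) and 19905 other protein-coding genes (grey), with the red line to the right over most of the range (medians 1805 and 936 bp). Right, the share of genes bound at the promoter (%) by upstream spacing, *ceh* genes left of the other genes, with the bound and total number of genes on each bar. The bound *ceh* genes stand in the bins below 500 bp and of 1000 to 2000 bp.

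The distance to the nearest IDR peak was close to that of other genes. The distance from a 5′ end to the nearest IDR summit ran from 42 bp at *ceh-38* to 93694 bp at *ceh-51*, a mesoderm gene of the NK family, with a median of 21510 bp for *ceh* genes, against 20130 bp for the other genes. No IDR summit lay within 20 kb of the outermost 5′ end of 35 *ceh* genes (55.6%), against 50.6% of the other genes. *ceh-22*, which drives pharyngeal muscle genes, had its nearest summit 19438 bp away, *ceh-36*, of the AWC and ASE sensory neurons, 16706 bp away, and *ceh-24*, of the NK family, 79527 bp away. Among the strongest peaks of replicate 3 alone (without replicate 2), *ceh-24* had a distal upstream peak within 5 kb. None of these 3 had a relaxed peak of the pooled reads in its promoter.

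Homeobox genes with other names were read in the same way. A list of 39 homeobox genes with other names, among them the Hox genes *lin-39*, *mab-5* and *egl-5*, the LIM genes *mec-3* and *ttx-3* and the TALE gene *unc-62*, had 1 bound gene (2.56%, exact 95% interval 0.0649 to 13.5), beside 3.17% of *ceh* genes and 6.23% of all protein-coding genes. The interval includes both shares. That gene was *duxl-1*, with the full CRE near its summit, 14 bp upstream of its 5′ end. The signal was 304 (pooled reads), 134 from replicate 2 and 168 from replicate 3. This summit also lay in the promoter of another gene, *ZC204.14*. One more homeobox gene of this list, *mec-3*, needed for touch receptor neurons, had a distal upstream peak, of signal 340 (2.56% of 39 genes, against 8.42% of all protein-coding genes). Their median upstream spacing was 9235 bp, and 92.3% of them had at least 1000 bp, against 1805 bp and 65.1% for *ceh* genes.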

How the data were processed

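Per the listings deposited with the samples, reads of both replicates were aligned to builds ce10 and ce11, and the authors made relaxed peak lists per replicate and from both together, each with 1 further input file that was not analysed here. The optimal IDR list derives from these lists. Which aligner, caller and IDR cut-off were used is not given in the sources used here. The deposited signal is the authors' value per peak. The IDR and pooled lists share the highest value, 1586, and the values at *ceh-38* (217) and *ceh-99* (239), while each replicate's list has its own scale. The signal was used to describe and rank peaks within a list, and to set pooled peaks beside the lowest IDR signal. The deposited −log10 q values were not used, nor were the ce10 lists. Read depth is not known, so intervals cover counting error only.

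The ce11 lists were joined to Ensembl release 115 (WBcel235, the same assembly) with its 29314 protein-coding 5′ ends on 6 chromosomes, with Python 3.11.15, numpy 2.4.6 and scipy 1.17.1. No peak passed a chromosome end. The calls were checked on placed test summits. The summit is the authors' start plus offset, printed from 1. Intervals of shares are Clopper-Pearson at 95%, and a count of 0 allows 3 counts. Distal peaks were counted whatever lay between, and 5 genes with no coding gene upstream have no spacing. A replicate's value is that of its strongest summit within 100 bp. No test was run, since there is 1 group.

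The members and lists were chosen with earlier results of these data known. Genes named are all *ceh* genes with an IDR peak, the 5 unbound ones with the strongest relaxed promoter peak, and up to 6 bound other homeobox genes. Other names, among them *mec-3*, *ceh-53*, *ceh-91* and those given for spacing or distance, were chosen after their values were seen. Of the class lists 1 name, *ceh-44*, was not matched and was not used here. Alternatives were other windows, reaches and spacings, peak overlap, the 1123 strongest IDR peaks, each replicate's strongest peaks, and no peaks near tRNA genes.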

Additional observations from a re-analysis of the deposited data

How the results depend on the processing

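Of 7 alternatives for bound *ceh* genes, 5 stayed within 1.5 times of the count of 2. It was 1 with 500 bp upstream (1.59%, against 4.78% of other genes) and 2 among the 1123 strongest IDR peaks (3.17%, against 3.38%). The count was 2 without replicate 2 (3.17%, against 6.28%) and 4 without replicate 3 (6.35%, against 5.9%). Distal peaks were at 5 *ceh* genes, and at 1 with a reach of 2500 bp (1.59%, against 3.58% of other genes), at 13 with 10000 bp (20.6%, against 16.1%), at 2 nearer than the next coding gene (3.17%, against 2.49%) and at 1 among the 1123 strongest IDR peaks (1.59%, against 4.42%). They were at 5 without replicate 2 (7.94%, against 8.35%) and at 3 without replicate 3 (4.76%, against 8.07%). The intronic count was 1 in all 5 alternatives, *ceh-60* each time (1.59%). The share of other genes ran from 0.874% among the 1123 strongest IDR peaks to 2.71% with the gene body outside promoters. The median spacing of 1805 bp was 879 bp to any gene other than piRNA genes and 4235 bp on the same strand. The median signal at bound *ceh* genes, by the strongest promoter summit of each, was 228 over only 2 genes, against 155 at other bound genes. Without replicate 2 the median was 136 over 2 genes, against 99.3. Without replicate 3 it was 73.8 over a different set of 4 genes, against 61.6. The scale differs between these lists, and from so few genes no difference in signal can be read. The shorter reach, the nearer neighbour, the smaller list and the removal of peaks near tRNA genes can only lower a count. A longer reach and the whole gene body can only raise it. Where the replicates differ, the cause was not tested. No paired analysis was possible because there is 1 group.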
